A study of Mus musculus with 2 samples.

Results

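Accessible chromatin was examined at internal alternative promoters of protein-coding genes, that is, at annotated transcript starts that lie well inside the gene. A region was taken from the shorter of the deposited lists of replicate 1 where it overlapped a region of the shorter list of replicate 2 by at least 1 bp and lay on chromosomes 1 to 19. It also had to lie within 500 bp of a GENCODE M21 transcript start placed 10 kb or more downstream of the outermost start of the same coding gene, and more than 1000 bp from the outermost start of any gene. Of the 54546 regions in the list of replicate 1, 46876 were on these chromosomes and shared, and 1473 of them (3.14%) met the rule, in 1044 genes. The choice used position and presence in both lists only. Region height, footprints, base composition and transcript class played no part in it.

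The data came from DNase-seq, an assay that maps where the nuclease DNase I can reach the DNA, which is mostly at nucleosome-free promoters, enhancers and insulators. The tissue, labelled as a layer of hippocampus, was from male B6CASTF1/J mice aged 10 days, first-generation hybrids of a laboratory strain with the CAST strain. The design held 1 group of 2 libraries, replicate 1 and replicate 2, with no treatment, mutation or second condition. Each tissue sample was described as holding 3 males, and both carried the same donor label, so it is not known whether they shared animals.

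Many mammalian genes have more than 1 promoter, each with its own first exon, and the choice of promoter can change the untranslated leader, the start codon or the tissue in which the gene is read. Neurons are known for such genes, among them the neurexins, whose long alpha and short beta forms start at separate promoters, and Bdnf, whose several first exons join a common coding exon. Promoters of broadly used genes usually lie in CpG islands, stretches where the dinucleotide CpG has been kept, whereas enhancers are mostly poor in it.

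The sequences of 7 of these regions show the range, from CpG islands that hold the start of a principal transcript to a region with 2 CpG dinucleotides. They are RefSeq's mm10 (GRCm38) reference sequence, printed 5′ to 3′ on the strand of the gene, with every CpG dinucleotide in capitals. The alleles of the CAST strain were not read. The first 3 are among the 4 highest internal regions by the mean of their ranks in both libraries, where Bicdl1-203 is at 1 and Xrcc6-201 and Stag1-201 tie at 3.5. The next 2 belong to neuronal genes with well-known alternative promoters. The last 2 are from neuronal genes too and differ widely in CpG content.
Xrcc6-201 (chr15:82016161-82016400, + strand): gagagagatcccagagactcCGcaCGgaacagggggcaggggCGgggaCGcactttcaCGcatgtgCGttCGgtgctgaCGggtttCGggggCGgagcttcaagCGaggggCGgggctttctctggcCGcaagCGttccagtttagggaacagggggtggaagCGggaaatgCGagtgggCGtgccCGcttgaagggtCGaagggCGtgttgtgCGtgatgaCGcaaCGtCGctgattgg
Stag1-201 (chr9:100643441-100643680, + strand): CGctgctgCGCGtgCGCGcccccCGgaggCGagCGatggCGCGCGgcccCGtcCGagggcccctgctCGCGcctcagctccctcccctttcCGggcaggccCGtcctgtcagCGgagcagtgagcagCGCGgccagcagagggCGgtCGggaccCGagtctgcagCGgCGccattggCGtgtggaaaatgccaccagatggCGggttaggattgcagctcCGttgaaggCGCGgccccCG
Bicdl1-203 (chr5:115653081-115653300, - strand): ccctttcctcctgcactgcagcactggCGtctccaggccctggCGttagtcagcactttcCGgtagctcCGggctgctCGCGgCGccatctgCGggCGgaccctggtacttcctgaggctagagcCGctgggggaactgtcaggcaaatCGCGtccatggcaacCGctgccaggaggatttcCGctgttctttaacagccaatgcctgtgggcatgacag
Dclk1-207 (chr3:55461701-55462000, + strand): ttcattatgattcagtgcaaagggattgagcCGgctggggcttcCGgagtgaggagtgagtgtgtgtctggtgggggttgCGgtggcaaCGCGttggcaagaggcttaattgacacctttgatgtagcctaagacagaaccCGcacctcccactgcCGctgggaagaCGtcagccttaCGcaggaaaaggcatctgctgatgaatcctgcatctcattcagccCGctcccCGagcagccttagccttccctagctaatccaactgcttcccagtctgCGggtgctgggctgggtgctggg
Bdnf-209 (chr2:109692321-109692540, + strand): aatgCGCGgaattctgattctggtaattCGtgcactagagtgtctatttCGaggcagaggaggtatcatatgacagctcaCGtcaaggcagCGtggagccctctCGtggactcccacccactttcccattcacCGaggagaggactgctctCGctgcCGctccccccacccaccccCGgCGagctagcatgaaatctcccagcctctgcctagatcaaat
Elavl2-209 (chr4:91376441-91376640, - strand): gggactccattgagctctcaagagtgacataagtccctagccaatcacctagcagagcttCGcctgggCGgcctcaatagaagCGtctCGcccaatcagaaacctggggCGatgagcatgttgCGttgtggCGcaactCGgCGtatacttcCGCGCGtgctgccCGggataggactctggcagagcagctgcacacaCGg
Camk2b-213 (chr11:6000401-6000700, - strand): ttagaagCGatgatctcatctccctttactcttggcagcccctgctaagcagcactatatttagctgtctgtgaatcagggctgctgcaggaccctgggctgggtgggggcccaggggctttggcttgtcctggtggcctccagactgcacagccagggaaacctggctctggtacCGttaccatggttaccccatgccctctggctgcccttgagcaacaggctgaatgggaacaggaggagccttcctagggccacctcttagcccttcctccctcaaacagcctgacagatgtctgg
Each is the highest internal region of its gene, except for Bdnf, where it is the lowest by the mean of both libraries but not in replicate 1. The Dclk1 sequence is the central 300 bases of its region and the others are whole regions. The start of Xrcc6-201 is base 209 of its sequence, that of Stag1-201 base 173, that of Dclk1-207 base 199, that of Bdnf-209 base 116, that of Elavl2-209 base 145 and that of Camk2b-213 base 253. The start of Bicdl1-203 lies outside the printed bases, 95 bp from the region. Xrcc6-201 held 24 CpG dinucleotides, Stag1-201 31, Bicdl1-203 14, Dclk1-207 12, Bdnf-209 12, Elavl2-209 14 and Camk2b-213 2.

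The 2 libraries gave much the same set. By position alone 1609 regions of replicate 1 qualified, of which 1473 (91.5%) were found in replicate 2, beside 88.4% of all autosomal regions of replicate 1. Replicate 2 had the longer list, and 2260 of its regions qualified, of which 1475 (65.3%) were found in replicate 1, beside 64.3% of all its autosomal regions. Across the 1473 regions the log2 heights of the 2 libraries correlated with a Pearson coefficient of 0.930 and a Spearman coefficient of 0.917, given as a description, since the regions share their libraries. Heights, the authors' own value per region, had a range of 0.126 to 11.7 in replicate 1 and 0.153 to 12.7 in replicate 2. They were higher in replicate 2 at 84.0% of internal regions and at 81.4% of all shared regions, so a height is read against other regions of its own library. The depth of the libraries is unknown here. With 1 group of 2 libraries no test between conditions exists, and the spread between replicates is that of these 2 samples only. Of 10 genes listed for hippocampal neurons, 9 had a shared region within 1000 bp of a start (all but Fibcd1), and 0 of the 9 found among 10 genes of other organs did. The share over all coding genes was not worked out by this measure. Within 500 bp of their outermost starts it was 53.1%.

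The internal regions had a median width among those of the other classes, and most of their nearest starts lay in introns. Their median width in replicate 1 was 220 bp, beside 200 bp for all shared regions and 240 bp at outermost starts of coding genes. It was 180 bp for regions inside coding genes more than 1000 bp from any start. Of the internal regions 734 (49.8%) covered an annotated start, while the others lay beside it. Context was read at the nearest start of each region, relative to transcripts from upstream starts. By it, 1263 regions (85.7%) were intronic, 144 were in a coding exon, 58 in a noncoding exon and 8 outside. Those 8 belonged to 2 genes, 7 of them to Ppp2r3d. The shares that cover a start and that are intronic were not worked out for other regions or for closed internal starts. The start lay a median of 41.0 kb downstream of the outermost start of the gene, with quartiles of 19.7 and 102 kb and a maximum of 2185 kb. Adjacent rows of the list sometimes overlap: 67 internal regions (4.55%) overlapped another, and the 1473 rows made up 1437 separate stretches. Only 13 had a copy elsewhere in the genome, 3 lay near starts of 2 genes, and 65 lay only at transcripts annotated with an incomplete 5′ end.

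The regions nearest the limits of the rule are described by their values alone. Just inside the 10 kb limit, Slc38a3, a glutamine transporter gene, had a region at a start 10002 bp downstream with heights of 2.02 and 1.81 in replicates 1 and 2. Just outside, Cc2d2a had a region at 9943 bp with heights of 2.51 and 2.40. At the 500 bp limit, the region of Dnajc8 at 499 bp from a start had heights of 1.38 and 1.26, and that of Dab2ip at 502 bp, left out by the rule, had 0.761 and 1.04. All 4 heights lay within the range of the internal regions.

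Most annotated internal starts were not accessible. Of 22019 distinct internal starts that met the distance limits, 2613 (11.9%) had a shared region within 500 bp, 12.2% in replicate 1 and 15.3% in replicate 2 taken alone (13.8% ± 2.20, SD, n = 2). Of the 20807 outermost starts of autosomal coding genes, 53.1% had such a region, and of the outermost starts of the 7241 genes with an eligible internal start, 69.8% did. Positions inside coding genes that lay more than 1000 bp from every start were within 500 bp of a shared region in 1.56% of cases. Internal starts thus stood between outermost starts and other gene-body sequence. A start open in a single list was mostly open in the longer one, with 765 internal starts open only in replicate 2 and 81 only in replicate 1.

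CpG content split the internal starts most sharply of the features examined. Here a sequence of 300 bp was called CpG rich where its CpG count was at least 0.6 of that expected from its bases and its GC content at least 50%. Of 1744 CpG-rich internal starts 1258 (72.1%) were open in both libraries, in place of 1355 of 20275 (6.68%) of the others. Being the start of a transcript tagged as principal by APPRIS, the annotation's choice of the main protein form, went with openness within each class. Among CpG-rich starts 81.8% of 395 principal and 69.3% of 1349 other starts were open. Among starts that were not CpG rich, 14.9% of 1136 principal and 6.20% of 19139 other starts were open. The 2 replicates gave the same order of these 4 classes.

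**Figure D1:**
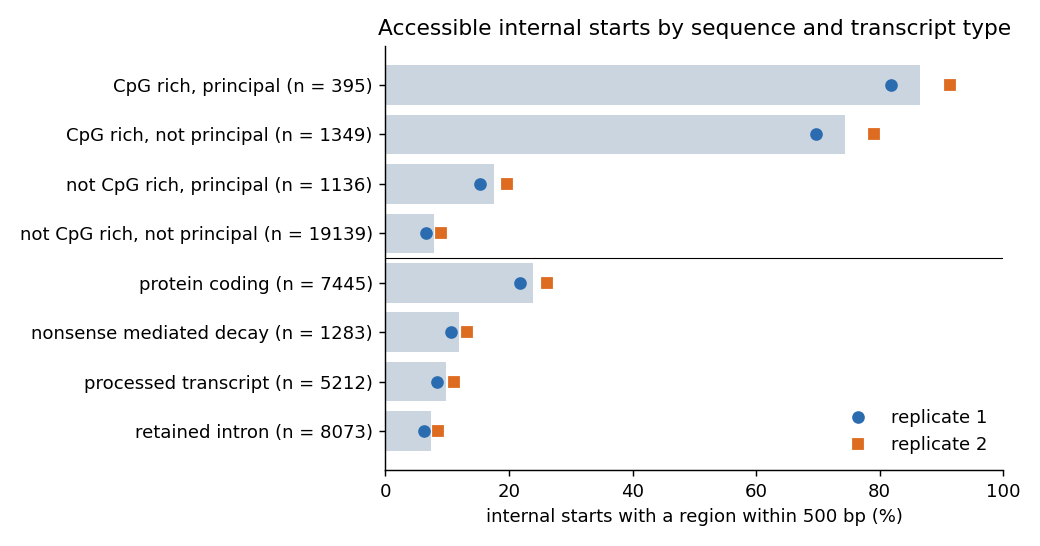
Share of internal starts with an accessible region within 500 bp (horizontal axis, percent), by CpG content and principal transcript above the line and by transcript type below it. Bars are the mean of 2 libraries and points the single libraries; CpG-rich starts reach 69.3% or more open in both libraries, while retained-intron starts are at 5.98%.

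Transcript type sorted the starts as well. Starts of protein-coding transcripts were open in 21.2% of cases, those of transcripts marked for nonsense-mediated decay in 10.4%, those of noncoding processed transcripts in 8.0% and those of retained-intron transcripts in 5.98%. Starts of transcripts with an incomplete 5′ end, whose true start is unknown, were open in 3.26% of cases, beside 13.6% of complete ones. The share varied less with distance from the outermost start. It was 12.3% at 10 to 20 kb, 10.4% at 20 to 50 kb, 11.2% at 50 to 100 kb, 13.1% at 100 to 200 kb and 16.6% at 200 kb or more. Transcript types differ in CpG content and share genes, and their separate parts were not tested.

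Accessible internal starts were weaker than outermost ones. The median height of internal regions was 1.21 in replicate 1 and 1.53 in replicate 2. The 12718 regions within 500 bp of an outermost start of a coding gene had medians of 2.14 and 2.85. The ratio was 0.563 in replicate 1 and 0.536 in replicate 2 (0.550 ± 0.0188, SD, n = 2). Against 11954 distal regions inside coding genes, more than 1000 bp from any start, with medians of 1.06 and 1.29, internal regions were slightly higher, by a ratio of 1.14 and 1.18 (1.16 ± 0.0321, SD, n = 2). The ranges between the quartiles of the 3 classes overlapped in each library. In such a bulk tissue a start open in fewer cells and one less open in every cell cannot be told apart.

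**Figure D2:**
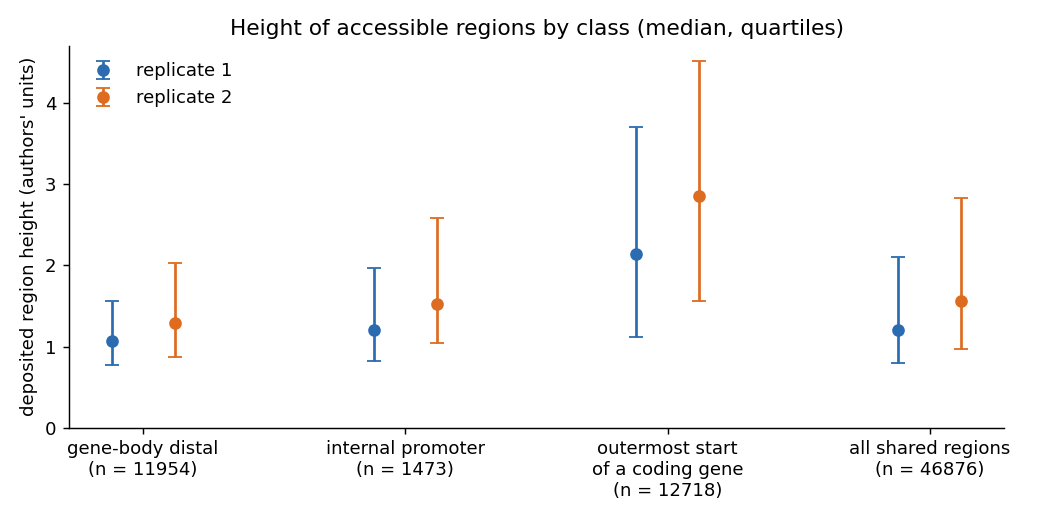
Median region height with quartile bars (vertical axis, the authors' units) for distal, internal and outermost-start regions and for all shared regions, in each library. Internal regions have medians of 1.21 and 1.53, below the 2.14 and 2.85 of outermost-start regions and just above the 1.06 and 1.29 of distal ones.

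Internal regions were a mixture in sequence. The median ratio of observed to expected CpG was 0.509 in internal regions, 0.810 in outermost-start regions, 0.238 in distal regions and 0.401 in all shared regions. By the limits above 602 internal regions (40.9%) were CpG rich, beside 82.2% at outermost starts and 4.74% of distal regions. The CpG-rich internal regions were also the higher ones, with median heights of 1.48 and 2.14 in the 2 libraries, while the other 871 had 1.11 and 1.33. Height fell with distance from the outermost start, from 1.46 and 1.94 at 10 to 20 kb to 0.936 and 1.28 at 200 kb or more. The CpG-rich share was 48.0% in the nearest of these bins, 27.4% at 100 to 200 kb and 39.2% in the farthest.

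Footprints, short protected stretches inside a region that the authors called in each library, were as common as elsewhere. At least 1 footprint lay in 94.4% ± 3.36 (SD, n = 2) of internal regions, beside 93.9% at outermost starts, 96.8% of distal regions and 94.5% of all shared regions. Per 100 bp there were 1.41 footprints in internal regions, 1.55 at outermost starts and 1.47 in distal regions. In 25 internal regions no footprint was listed in either library. The most were in Nr3c1, which encodes the glucocorticoid receptor, and in Hip1, a clathrin adaptor gene. Nr3c1 had 13 in a region of 1280 bp in replicate 1 and 20 in the matching region of replicate 2, and Hip1 had 16 in both. Fancc, of the Fanconi anaemia repair pathway, had 13 and 15, and Kat6b, a histone acetyltransferase gene, 14 and 12. These regions were 600 bp wide or wider in replicate 1.

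Motif matches placed internal regions between the other classes. Windows of 300 bp centred on each region were searched on both strands, and the ranges given are exact 95% binomial limits for counting error alone. The SP/KLF motif GGGCGG, the GC box of CpG-island promoters, was found in 42.2% of internal regions (39.6 to 44.7), 69.0% of outermost-start regions, 11.3% of distal regions and 32.4% of all shared regions. The ETS motif CCGGAAGT was found in 1.63% (1.05 to 2.41), 7.50%, 0.376% and 2.55% in the same order. For NRF1, a longer palindrome that holds CpG dinucleotides, the shares were 0.95%, 2.12%, 0.142% and 0.783%, and for YY1, also a longer motif with a CpG, they were 0.272%, 1.59%, 0.0669% and 0.510%. The CRE motif TGACGTCA stood at 1.43%, 3.51%, 0.443% and 1.47%, and the EGR motif GCGTGGGCG, whose end can overlap GGGCGG, at 0.747%, 1.41%, 0.176% and 0.595%. These 6 motifs, all but GGGCGG rare in every class, were each more frequent at outermost starts than at internal ones and least frequent in distal regions.

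The reverse order held for motifs of distal elements. CTCF, the insulator protein whose motif was searched as a degenerate sequence, matched in 9.37% (7.93 to 11.0) of internal regions, 3.80% at outermost starts, 19.7% of distal regions and 13.9% of all shared regions. CAGATG, an E-box bound by NEUROD-type neuronal factors, matched in 19.9% (17.9 to 22.0), 9.77%, 29.8% and 22.3%. The AP-1 motif TGANTCA matched in 6.31%, 3.17%, 8.57% and 6.84%, and MEF2, searched as a degenerate sequence, in 2.17%, 0.692%, 2.87% and 2.15%. The remaining motifs had no such order: NFY, CCAAT, matched in 28.6%, 35.2%, 33.3% and 33.7%, RFX, searched as a degenerate sequence, in 1.22%, 0.794%, 0.745% and 0.749%, and TATAAA in 4.14%, 3.55%, 10.1% and 7.73%. TATAAA at its usual place, from -40 to -20 bp of the start on the strand of the gene, was found at 6 internal promoters (0.407%, 0.150 to 0.884), at 0.742% of open outermost starts and at 0.871% of internal starts without a region.

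CTCF matches were spread unevenly over the internal regions. They were found in 22.2% of the regions whose nearest start lay in a coding exon. Where that start lay in an intron the share was 7.76%. Where no coding transcript with a complete coding start begins at the internal start they were found in 19.1% of 482 regions. Where one with its own start codon does, they were found in 4.64% of 539. Regions named after retained-intron transcripts had CTCF matches in 21.1% of cases and those named after protein-coding transcripts in 5.24%. Of the printed regions Stag1-201 and Bicdl1-203 hold a CTCF match. Camk2b-213, with 2 CpG dinucleotides, holds AP-1, NEUROD-type and MEF2 matches, whereas Xrcc6-201 holds GGGCGG and CCAAT only.

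The cut-rate lists, which give a false discovery rate for the DNase I cut rate at single bases, were read at the starts themselves. For each internal region 1 nearest start was used, which gave 1356 distinct starts. At the base of the start a rate of 0.001 or lower was listed for 64.7% of these in replicate 1 and 74.5% in replicate 2, and for 66.4% and 77.2% of all 2613 open internal starts. At open outermost starts it was listed for 87.7% and 94.0%, and at internal starts without a region for 0.144% and 1.68%. Openness was called from regions of the same libraries, so the contrast with starts without a region follows from that split. The 541 starts of CpG-rich internal regions reached 83.4% and 93.9%, close to outermost starts, while the 840 of the other internal regions were at 52.4% and 62.1%. A start near regions of both kinds counts in both. The bases within 500 bp that met this limit lay upstream of internal starts in 52.7% and 49.2% of cases, and upstream of outermost starts in 47.2% and 44.7%.

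**Figure D3:**
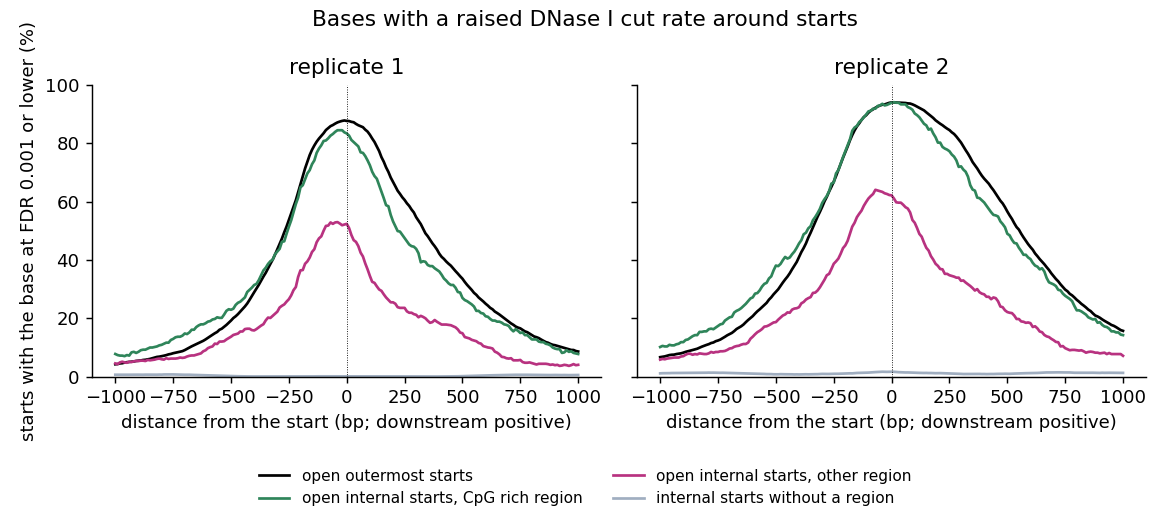
Share of starts (vertical axis, percent) whose base at each distance (horizontal axis, bp, downstream positive) has a listed false discovery rate of 0.001 or lower, in each library. Starts in CpG-rich internal regions, at 83.4% and 93.9% at the start base, run close to open outermost starts, at 87.7% and 94.0%. Internal starts without a region, chosen for the lack of a shared region in these libraries, stay under 2%.

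The outermost start of the same gene was often, but not always, accessible too. Among the 1044 genes with an accessible internal start, 608 (58.2%) had a shared region within 500 bp of the outermost start, below the 69.8% of all eligible genes. In 316 genes (30.3%) neither library listed a region within 1000 bp of the outermost start in the shorter list, and the other 120 (11.5%) had a region nearby in 1 library only or at a position not shared within 500 bp. Regions of the genes with a closed outermost start were CpG rich in 52.9% of 467 cases and held the start of a principal transcript in 49.3%. For genes with an open outermost start these shares were 33.7% and 29.6% of 830. At 532 internal regions (36.1%) a principal transcript started, and there 66.5% were CpG rich and median heights were 1.41 and 1.89, beside 26.4% and 1.13 and 1.43 at the other 941.

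Where both starts were open the internal one was usually the lower. Over the 608 genes, taking the highest internal region of each, the median log2 ratio of internal to outermost height was -0.58 in replicate 1 and -0.68 in replicate 2 (-0.63 ± 0.07, SD, n = 2). The internal region was lower in both libraries in 378 genes (62.2%) and higher in both in 168 (27.6%). In the remaining genes the libraries differed in which start was higher.

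The highest internal region of all belonged to Bicdl1, which encodes an adaptor that links cargo to the dynein motor. Its start, Bicdl1-203, lies 78.6 kb inside the gene, and its heights were 11.7 in replicate 1 and 12.7 in replicate 2, while the outermost start had 1.27 and 2.20. The transcript from it is annotated with a protein of 82 residues in place of 577. Chd8, a chromatin remodeller gene, had heights of 8.76 and 9.08 at an internal start and 4.11 and 5.16 at its outermost start. Zfp638 had 7.20 and 9.60 inside and 3.58 and 4.88 at its outermost start, and E4f1, a zinc-finger factor gene, had 8.05 and 7.95 and 5.61 and 6.40. In these 4 genes both libraries had the internal region higher. All but Bicdl1 were CpG rich in the internal region.

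At 5 of the 10 highest internal regions the outermost start had no region in either library. Glo1, the gene for the glyoxalase that removes methylglyoxal, had heights of 9.67 and 10.2 at a start 14.2 kb inside. Xrcc6, which encodes the Ku70 protein of DNA end joining, had 9.70 and 9.26 at 28.5 kb. Stag1, a cohesin subunit gene, had 8.92 and 11.6 at 45.8 kb. These levels were several times the median of outermost-start regions in both libraries, which picking the highest regions makes likely. Ndel1, a regulator of dynein in migrating neurons, had 9.45 and 8.76, and Kat6b 7.18 and 8.44. The principal transcripts of Xrcc6, Stag1 and Ndel1 start at the internal position and none starts at the outermost one, and for Glo1 both positions have one. Hdac4, a histone deacetylase gene, had 8.13 and 8.31 with a region at its outermost start in replicate 2 only.

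Further down the same class came Aktip with 7.30 and 8.04, Rbpj, the DNA-binding factor of Notch signalling, with 7.35 and 7.71, Fchsd2 with 6.50 and 8.28 and Tollip, an adaptor of innate immune signalling, with 6.90 and 7.40. Each was CpG rich and each held the start of a principal transcript. Ppp2r3d, a phosphatase subunit gene near the end of chromosome 9, had 7 internal regions with heights from 0.561 to 6.77 as the mean of both libraries. Their nearest starts all lay outside its upstream transcripts.

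Some genes had a far higher region inside than at an open outermost start. Pnrc1, a nuclear receptor coactivator gene, had heights of 6.30 and 8.70 inside and 0.553 and 0.513 at the outermost start, a log2 ratio of 3.51 and 4.08. Bicdl1, with the heights already given, had a log2 ratio of 3.21 and 2.53. Cfap97 had 4.64 and 5.22 against 0.622 and 1.27. These 3 genes were picked for the greatest mean ratio over both libraries, so the same order in each is largely built in. Among other genes with such an excess, the mean log2 ratio was 2.41 for Pwp1, 2.35 for the glycolytic regulator Pfkfb3, 2.34 for Eci2, 2.30 for the proton-pump subunit Atp6v1h, 2.29 for Abr and 2.25 for Fgd4. At Pwp1, Pfkfb3, Eci2 and Atp6v1h the principal transcript starts inside.

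At the other end stood faint regions inside genes with a strong outermost start. Ctnna3, which encodes an alpha-catenin, had heights of 0.497 and 0.541 inside and 10.5 and 13.5 at the outermost start. Ighmbp2, a helicase gene, had 0.126 and 0.158 against 3.05 and 5.14, the lowest height of replicate 1 among all internal regions. Sin3b, a corepressor gene, had 0.239 and 0.262 in the higher of its 2 regions against 3.96 and 4.93. None of these 3 regions was CpG rich, and none held the start of a coding transcript with a complete coding start. For the highest internal region of the next genes, the mean log2 ratio was -3.94 for Acap3, -3.89 for March3, -3.86 for Bcas3, -3.47 for Fggy and -3.41 for the ubiquitin protease gene Usp36. Trpm8, the gene of a cold-sensing channel, was unlike these: its internal region had 1.56 and 2.44, above the median of internal regions, and its outermost start 21.03 and 23.60.

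Several genes were accessible at many internal starts. Pde4d, a phosphodiesterase gene that degrades cyclic AMP, had 8 internal regions, the most of any gene, while its outermost start was closed in both libraries. They lay from 667 to 1477 kb downstream, with the highest at Pde4d-203, at 1.77 and 1.55, and the lowest at Pde4d-205, at 0.434 and 0.574. Gramd1b, a cholesterol-transfer gene, and Ppp2r3d had 7 each. Cic, Dst, Nr3c1 and Tenm4 had 6 each, and Auts2 and Dixdc1 5 each. Several genes tied at 4, among them 4930402H24Rik, Bdnf, Gnas, Ank2 and Camta1. Counts of rows overstate the separate elements in some of them: of the 6 of Nr3c1, 3 overlap each other, with 1 matching region of 2.53 in replicate 2. In 4930402H24Rik the rows of 960, 620 and 120 bp have the same height of 2.09 in replicate 2. In all, 750 genes had 1 internal region and 294 had 2 or more.

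Height varied strongly between the internal starts of these genes. In Gramd1b the regions near the principal start at 75.6 kb had 0.603 to 0.786 in replicate 1. A region at 198 kb, whose nearest start is of a retained-intron transcript and lies in a coding exon, had 2.68 and 4.66. In Cic, a repressor gene, the regions at 10.7 to 14.5 kb ran up to 4.09 and 5.38 at Cic-202, near its outermost start at 5.93 and 6.06. Cic-202 has its own start codon, with a protein of 1604 residues in place of 2510. In Tenm4, a teneurin adhesion gene with a closed outermost start, the highest was at Tenm4-206, 625 kb inside, at 2.44 and 2.87, and that of Tenm4-203, which codes for nearly the whole protein (2796 of 2825 residues), had 0.968 and 1.50. The highest region in a gene was thus not always at a coding start.

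The 10 regions farthest from the first start included 4 of Pde4d, between 1236 and 1477 kb inside. Cntnap2, a neurexin-family adhesion gene, had its region at Cntnap2-205, 2185 kb inside, with heights of 1.04 and 0.814 and an outermost start at 0.754 and 1.32. Ptprd, a receptor phosphatase of synapse formation, had 1.41 and 1.69 at 1762 kb, in a CpG-rich region where its principal transcript starts, and 0.629 and 0.765 at the outermost start. Lsamp, a limbic adhesion gene, had 1.14 and 1.20 at 1548 kb and 3.11 and 3.83 at the outermost start. Of the 3 genes, Ptprd had the internal region higher and Lsamp the outermost one in both libraries, and in Cntnap2 the libraries differed. Dlg2, a postsynaptic scaffold gene, had 0.415 and 0.470 at 1196 kb, and Lrrc4c, a netrin-G ligand gene, 1.28 and 1.39 in the higher of 2 regions at 1149 kb.

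**Figure D4:**
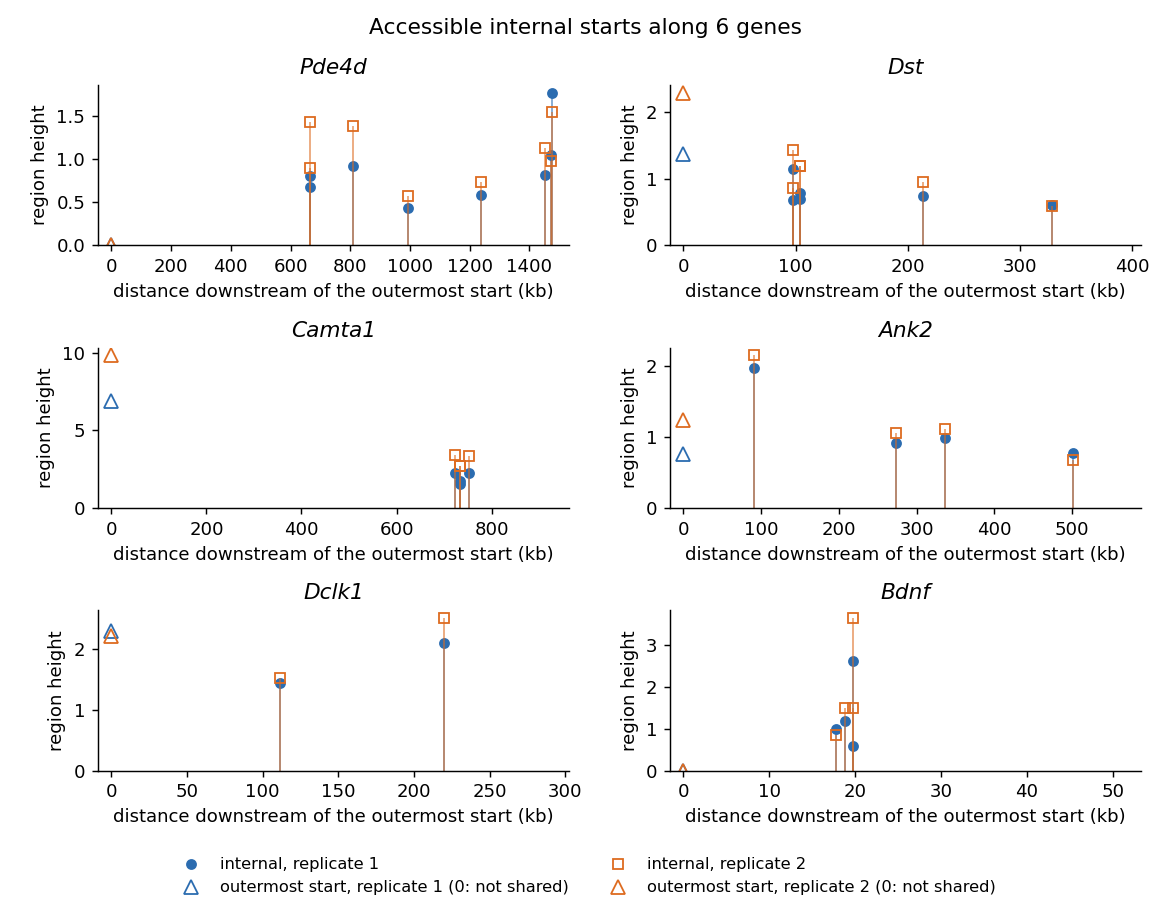
Height of each accessible internal region (vertical axis, authors' units) by distance from the outermost start (horizontal axis, kb) in 6 genes, with triangles for the outermost start (at 0 where no shared region lies within 500 bp). Pde4d has 8 internal regions and none at its outermost start, while Camta1 has its highest region, at 6.90 and 9.85, at the outermost start.

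Lists of genes by function give the background for these examples. Over all 7241 eligible genes, 14.4% had an internal region. Of 30 genes with textbook alternative promoters 26 were eligible and 9 of these (34.6%) had an internal region, among them Bdnf, Dclk1, Nr3c1, Gnas, Cyp19a1, Ntrk3, Nrxn2 and Nrxn3. The longest of the 17 without one were Ntrk2, Cux1 and Ncam1. Listed genes are longer than the rest, with a median of 152 kb in this list and 50.5 kb over all eligible genes, and have more annotated internal starts, 5.54 and 3.04 per gene. Over starts in place of genes, 28.5% of the 144 eligible starts of this list were open, beside 11.9% of all. Neighbouring starts can lie within 500 bp of the same region, as in Tcf4, with 8 open starts and 1 internal region. Shares over starts therefore give more weight to genes with clustered starts, in every list.

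Nrxn2, a presynaptic adhesion gene, had 1.90 and 2.22 at a start 78.9 kb inside, with its own start codon and 660 residues in place of 1703, and 3.41 and 4.58 at its outermost start. Dclk1, which encodes a microtubule-binding kinase with a short kinase-only form, had 2.11 and 2.51 at Dclk1-207, 220 kb inside, and 2.30 and 2.21 at the outermost start. The 2 libraries differed in which of the Dclk1 starts was higher. Dclk1-207 codes for 452 residues and the outermost transcript for 756. A second region, at Dclk1-205, 112 kb inside, had 1.43 and 1.53.

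Bdnf, the neurotrophin gene, had 4 internal regions between 17.7 and 19.8 kb. The highest, near Bdnf-204, had 2.62 and 3.65, that over Bdnf-205 1.19 and 1.50, that near Bdnf-203 0.578 and 1.50 and that over the printed Bdnf-209 0.999 and 0.858. The same region was the highest in both libraries, and the regions of Bdnf-205 and Bdnf-203 share 1 region of replicate 2. The outermost start had a region within 500 bp in each library, but these did not overlap. Transcripts from the internal starts code for 249 residues and those from the outermost start for 257. Nr3c1 had its highest region at 3.70 and 6.04, 28.1 kb inside, where transcripts share the start codon of the outermost ones, and a closed outermost start. Gnas, an imprinted gene for a G protein subunit, had 4 internal regions at 43.4 to 60.3 kb, from 1.19 to 1.97 as the mean of both libraries, and a region near its outermost start in replicate 2 only.

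Cytoskeletal linker genes had an internal region in 17 of 30 eligible cases (56.7%), with a median gene length of 171 kb, and 19.4% of their 309 starts were open. Nav2, a neuron navigator gene, had 2.71 and 3.45 at 337 kb in a CpG-rich region and 2.90 and 2.67 at 50.4 kb in one that was not. It had no region at its outermost start in either library. Ank2, which encodes ankyrin-B, had 1.96 and 2.15 at the principal start 90.4 kb inside and 0.761 and 1.24 at the outermost one, and 3 further internal regions between 0.719 and 1.05 as means. Macf1 had 1.83 and 2.27 at 272 kb, Map2 1.80 and 1.77 at its principal start 147 kb inside, and Map4 1.18 and 1.78 at 121 kb. Dst, the dystonin gene with neuronal, muscle and epithelial forms, had 6 regions at 97.7 to 328 kb, of 1.14 and 1.43 at most, and 1.37 and 2.29 at its outermost start. The longest without a region were Nav3, Dtna and Dtnb.

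Synaptic adhesion and scaffold genes had the largest share of the lists, with 19 of 32 (59.4%), the longest genes, with a median of 503 kb, and 28.9% of 197 starts open. Dlg4, which encodes PSD-95, had 2.51 and 2.56 and 2.34 and 2.43 at neighbouring regions 12.8 and 12.5 kb inside, and a closed outermost start. Ptprs had 4.73 and 4.77 at 14.3 kb and 4.66 and 6.46 at its outermost start, which the libraries thus ordered differently. Shank3, a scaffold gene known for intragenic promoters, had 1.58 and 2.86 at 31.2 kb, 1.24 and 1.66 at 33.3 kb and 1.34 and 1.91 at its outermost start. The longest without a region were Magi2, Cdh13 and Cadm2.

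Kinase, exchange-factor and phosphodiesterase genes had an internal region in 20 of 36 eligible gene models (55.6%), with 27.2% of 254 starts open. Rgs3, a G protein regulator, had 3.75 and 4.13 at a retained-intron start 140 kb inside, and its outermost start was closed. Arhgef7, an exchange factor for Rac, had 2.75 and 3.55 at its principal start 30.6 kb inside and 1.23 and 1.75 at the outermost one. Camk2b, a calcium-dependent kinase gene, had 2.43 and 2.09 at the printed CpG-poor region, where a noncoding transcript starts. Rap1gap had 2.17 and 2.40 at its principal start. Prkcz, whose brain form PKM-zeta comes from an internal promoter, had 1.37 and 1.92 at Prkcz-202, which codes for 409 residues in place of 592, and 1.32 and 2.28 at a noncoding start 93.0 kb inside. Camk2b and Prkcz had a region at the outermost start in replicate 2 only.

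Transcription factor and cofactor genes had an internal region in 13 of 42 cases (31.0%), with 17.3% of 294 starts open. Camta1, a calmodulin-binding activator gene, had 4 internal regions, of which the highest, at 722 kb, had 2.26 and 3.39, well under its outermost start at 6.90 and 9.85. Tcf4 had 2.70 and 3.28 at Tcf4-225, 250 kb inside. Nfix had 3.02 and 2.51 at 26.0 kb and Nfia 1.69 and 2.52 at 138 kb, the latter under its outermost start at 4.51 and 4.12. Cbfa2t3 had 1.62 and 2.95 with a closed outermost start. The longest without a region were Zfhx3, Sox5 and Zbtb20.

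Neuronal RNA-binding protein genes had an internal region in 8 of 17 cases (47.1%), with 31.2% of 93 starts open. Of these 29 open starts Elavl2 held 8, Mbnl1 7 and Rbfox2 6. Elavl2, the gene of a neuronal Hu protein, had 4.68 and 4.21 at the printed Elavl2-209 and 1.41 and 2.28 at Elavl2-207, and no shared region at its outermost start. Mbnl1 had 1.33 and 2.32 at its principal start with a closed outermost start. Rbfox1, a splicing regulator of neurons, had 1.23 and 1.50 at 464 kb and 0.962 and 1.49 at its outermost start. Rbfox2, Celf6 and Elavl4 had the outermost start higher in both libraries, with mean log2 ratios of -1.52, -1.74 and -1.34 for their highest internal regions. The longest without a region were Celf2, Khdrbs2 and Msi2.

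Ion channel and transmitter receptor genes had the lowest share of the neuronal lists, with 10 of 35 (28.6%). Their median length was 319 kb, and they had the fewest eligible starts per gene of these lists, 4.29. Of their 150 starts 14.0% were open, beside 11.9% of all. Cacna1a, a presynaptic calcium channel gene, had 1.97 and 3.69 at 251 kb with a closed outermost start. Scn2a, a sodium channel gene, had 2.48 and 1.75 at an internal start that shares the start codon of the outermost one, which had 1.17 and 1.03. The glutamate transporter gene Slc1a2 had 1.42 and 2.18 inside and 1.56 and 2.06 at the outermost start. Cacna1c had 1.31 and 1.93 and Kcnip3 1.14 and 1.01. The longest without a region were Grm7, Kcnma1 and Grik2.

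Of genes marking oligodendrocytes, astrocytes, microglia and vessels 7 were eligible and 0 had an internal region, with Flt1, Tek and Aldh1l1 the longest. Of the 7, 1 was open at its outermost start. Among the autosomal genes of this list without an eligible internal start, Gfap, Olig1, Olig2 and Kdr were open at the outermost start and the others were not. Of genes of other organs 5 were eligible and 0 had one. Counts of 0 open among their 28 and 29 starts, with the limit set at 3 counts, allow an open share of up to 10.7% and 10.3%. Starts of 1 gene are not independent, so these limits cover counting error only.

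At part of the internal regions the start changed the coding sequence in the annotation. The same shares over all annotated internal starts were not worked out, so the counts describe the accessible ones only. For these classes a coding transcript was called complete where the start of its coding sequence was complete, whatever its other end. At 539 regions (36.6%), in 376 genes, complete coding transcripts from the internal start used another start codon than those from the outermost start. At 303 (20.6%) they shared it, at 482 (32.7%) no complete coding transcript began at the internal start, and at 149 none began at the outermost one. For 389 of the 539 both lengths were annotated from models complete at both ends. The protein from the internal start was shorter at 283 (72.8%), with a median of 81.4% of the outermost length, longer at 103 (26.5%) and equal at 3. CpG-rich shares were 50.5% at regions with their own start codon, 55.8% at those that share it and 12.4% where no complete coding transcript began. DNase-seq shows an accessible start and measures neither the transcript nor the protein made from it.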

How the data were processed

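DNase-seq region lists of 2 libraries of mouse hippocampus were used. The authors deposited a signal height for each region, footprints whose listed p-value is constant at 0.01, and a false discovery rate for the DNase I cut rate at single bases, taken here as an adjusted p-value and listed up to 0.05. They were made from filtered mm10 alignments of each library, per the notes deposited with each sample. Caller, threshold, depth and how heights were normalised were not given in the sources used here. Starts were from GENCODE M21 and bases from RefSeq's GRCm38.

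Regions were shared where they overlapped by 1 bp. A start was open where a shared region lay within 500 bp. Copies were matches of 90% identity over 90% of the length by BLAST 2.17.0. Python 3.11.15, numpy 2.4.6, pandas 2.3.3 and scipy 1.17.1 were used, and finding regions by the rule was tested on simulated data.

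The members and lists were chosen with earlier results of these data known. The rule for named genes takes the 10 highest regions, the 10 farthest, the 10 genes with most, the 10 highest with a closed outermost start, the 10 genes with the greatest and the 10 with the smallest height ratio, the 5 with most footprints, 6 genes per list, the 3 longest list genes without a region, and the regions at the limits. Names outside it, such as Cyp19a1, serve as members of counts, and some genes the rule names are not reported here. Alternatives covered the list, its stronger 50%, overlap, distances, transcripts, motif windows and single replicates.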

Additional observations from a re-analysis of the deposited data

How the results depend on the processing

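Internal regions had a lower median height than outermost-start regions under every alternative. The other recomputed values are a count, shares and a median, which have no direction that could turn. Footprint, CpG and motif values of outermost-start and distal regions, and the height ratio to distal regions, were not recomputed. The split of internal starts by CpG content and principal transcript was not rerun either. Nor were the shares of open outermost starts over all coding genes and all eligible genes. Whether genes with an internal region stayed below all eligible genes is thus not known. Cut-rate shares, height ratios within genes, gene lists and start-codon classes were given under the main settings only. The named regions are given by their value in each library. No paired analysis was possible because there was 1 group and no test. With the stronger 50% of regions the count was 826, open internal starts 7.92%, genes with an open outermost start 44.4%, the height ratio to outermost starts 0.658, regions with a footprint 99.2% and median CpG observed to expected 0.575. With the longer lists these were 2284, 15.8%, 67.4%, 0.505, 90.1% and 0.453. With each replicate left out in turn they ranged from 1609 to 2260, 12.2% to 15.3%, 59.6% to 67.1%, 0.517 to 0.586, 88.54% to 88.56% and 0.464 to 0.501.

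A reciprocal overlap of 50% gave 51.7% open outermost starts and a CpG ratio of 0.498. The height ratio was 0.569 with a start distance of 250 bp, 0.580 with 5 kb downstream and 0.526 with 20 kb. The CpG ratio was 0.546 at 250 bp, 0.448 at 1000 bp, 0.521 at 5 kb, 0.496 at 20 kb and 0.504 at 2500 bp from any outermost start. With coding transcripts only, 21.2% of internal starts were open and the CpG ratio was 0.632. Without transcripts of incomplete 5′ end, an alternative chosen after seeing the data, it was 0.524.

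In windows of 200 bp SP/KLF matched in 34.1%, NFY in 22.1%, NEUROD in 14.5%, AP-1 in 4.14%, TATAAA in 2.10% and MEF2 in 1.22%. With the stronger 50% of regions SP/KLF matched in 49.9%, NFY in 32.6%, NEUROD in 16.2%, CTCF in 13.1% and ETS in 2.54%, and with the longer lists SP/KLF in 36.7%, NEUROD in 22.2% and CTCF in 7.44%. The cause of these shifts was not tested. Whether a start is listed depends on the threshold of the list, and neither that threshold nor the depth is known here.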
